A study of Mus musculus with 20 samples.

Results

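The genes described here were picked by name as genes of 2-cell genome activation in mouse embryos. They were taken from a table of 25208 genes by symbol, as every gene whose name begins with Zscan4, Tcstv, Usp17l, Tdpoz or Obox, together with Zfp352, Arg2, Fgf1, Spz1, Tmem92, Sp110 and Dux. This gave 32 genes, which were 5 Zscan4 genes, 2 Tcstv genes, 5 Usp17l genes, 7 Tdpoz genes, 6 Obox genes and the 7 single genes. A low-count filter left 30 of them for testing, because Tdpoz5 and Tdpoz7 had no count in any library.

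The libraries came from cultured mouse preimplantation embryos and were made with Smart-seq2, an RNA-seq protocol for very small inputs. There were 20 of them in 10 groups of 2. Embryos labelled as wild-type controls and embryos given siRNA against P300, whose genotype is labelled P300 knockdown, were each sampled at 4 points, namely late 2-cell, 4-cell, and the early and the late part of the 8-cell stage. At the late 8-cell stage 2 further groups received the siRNA together with I1394G or with NaCr, and the labels call these rescues without spelling out either abbreviation. P300, encoded by Ep300, is a histone acyltransferase that adds acetyl and crotonyl groups, and the series addresses its part in histone crotonylation and early development. All zygotes were grown in KSOM medium. The labels do not state how many embryos made a library, whether the 2 libraries of a group came from separate cultures, or what the control embryos were given. The p-values below therefore measure the spread between these libraries, which may be technical.

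A fertilised mouse egg runs on maternal RNA until its own genome is activated. DUX, a double-homeodomain factor, opens and activates promoters of the 2-cell set, and OBOX homeodomain proteins are maternal and zygotic activators of the same programme. Many of the genes they act on sit in tandem clusters of near-identical copies and are shut down again soon after the 2-cell stage. Brief return of a few cells to this pattern, usually read out with Zscan4, is well known in mouse embryonic stem cells.

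The similarity of the copies limits how far single genes can be told apart. Over all 50-base windows of each gene's reference transcript, 17 of the 32 genes shared more than 40% of their windows exactly with another gene and 4 shared more than 90%. Tdpoz5 and Tdpoz7 shared 100% of their windows with each other. Zscan4f shared 95.3% and Zscan4b 90.3% with some other gene, against 49.6% for Zscan4d, 31.4% for Tcstv3, 21.8% for Usp17lb, 13.0% for Obox5, 7.09% for Zfp352 and 5.02% for Obox6. Arg2, Fgf1 and Spz1 shared none. For the more similar copies, a value may hold reads of a relative, so family sums are given beside single genes.

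Promoter sequence was compared for the 22 members with an entry in the RefSeq promoter table (24 windows, each from 250 bases before to 50 bases after a transcription start, build GRCm38.p6). The pair Zscan4c and Zscan4d is printed because it shows how alike the upstream sequence of these copies is, and Zfp352 because its window is the one with the densest run of a homeodomain-type motif. The windows below are the 250 bases just upstream of the start, 5′ to 3′ on the gene's own strand. Zscan4c lies at chr7:11005495-11005744 on the plus strand, Zscan4d at chr7:11166149-11166398 on the minus strand and Zfp352 at chr4:90218570-90218819 on the plus strand. In the Zscan4 pair capitals mark the differing bases, and in Zfp352 they mark TAATCC.
Zscan4c: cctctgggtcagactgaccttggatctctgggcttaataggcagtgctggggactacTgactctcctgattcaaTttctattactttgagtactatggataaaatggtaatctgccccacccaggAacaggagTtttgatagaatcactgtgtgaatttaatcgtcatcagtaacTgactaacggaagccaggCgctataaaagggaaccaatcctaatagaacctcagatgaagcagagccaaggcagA
Zscan4d: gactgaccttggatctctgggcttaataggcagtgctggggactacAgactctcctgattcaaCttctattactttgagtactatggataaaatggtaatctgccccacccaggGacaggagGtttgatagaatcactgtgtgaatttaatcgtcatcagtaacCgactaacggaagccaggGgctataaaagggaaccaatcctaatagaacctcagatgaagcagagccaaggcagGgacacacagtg
Zfp352: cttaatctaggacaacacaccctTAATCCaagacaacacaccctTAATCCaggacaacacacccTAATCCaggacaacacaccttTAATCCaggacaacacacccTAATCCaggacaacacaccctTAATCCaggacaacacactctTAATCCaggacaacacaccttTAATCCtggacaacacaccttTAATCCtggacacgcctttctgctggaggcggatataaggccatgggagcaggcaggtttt
Over the 239 bases that align, at an offset of 11, the Zscan4 windows differed at 7 bases and were 97.1% identical. The Zfp352 window held 9 copies of TAATCC spaced 20 to 21 bases apart, from 227 to 61 bases before the start. TAATCC is the reverse complement of GGATTA, a core bound by OBOX and related homeodomain proteins. On either strand and with overlaps counted, GGATTA occurred in 7.06% of all 32851 windows and in 6 of the 24 member windows (25%), in Obox3, Sp110, Tdpoz1, Tdpoz8 and Zfp352. No other window of the whole table held 9 or more copies. The Dux motif was in 0.0335% of all windows. TGCACAC, a Zscan4 motif, was in 4.4%, and TCAAGGTCA or TCAAGGCCA, an Nr5a2 motif, was in 1.01%. None of these 3 was in a member's window, which says only that the letters are not in those 300 bases.

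Library totals ran from 3.20 M to 24.8 M counts. Levels are CPM, the counts of a gene relative to the TMM-scaled library size in each library. They are shares of a library's RNA, and in such bulk samples fewer cells expressing a gene and less RNA per cell cannot be told apart. Ep300 itself lay at 86.1 and 83.8 CPM in late 2-cell controls and at 22.6 and 29.9 CPM with siRNA. Its log2 difference was -1.69 ± 0.37 (SE, adjusted p = 0.318) at the late 2-cell stage, -2.15 ± 0.37 at the 4-cell stage (adjusted p = 0.00128) and -2.15 ± 0.37 at the early 8-cell stage (adjusted p = 0.000819). At the late 8-cell stage it was -0.36 ± 0.37 (adjusted p = 0.4997), with 22.0 and 15.2 CPM in controls and 16.2 and 13.2 CPM with siRNA, so Ep300 does not check the labels there and directions at that stage rest on the labels. The preimplantation markers were expressed in all 20 libraries, with a summed level of 2483 to 11072 CPM. Summed fibroblast markers stayed at 0.853 to 16.1 CPM and summed blood markers at 0 to 2.12 CPM. Summed cumulus or granulosa markers were higher than either, at 26.3 to 80.5 CPM. The FPKM column of control early 8-cell replicate 2 correlated with its own counts at r = 0.8726 and with siRNA early 8-cell replicate 2 at 0.9491, while the other 19 FPKM columns matched their own counts at 0.999 or more. The main tests therefore used the counts. FPKM served to rank genes at the late 2-cell stage and in alternatives, which were limma tests and summed levels.

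In late 2-cell controls Obox5 was the most abundant member per transcript length, at 1302 ± 6.13 FPKM (SD, n = 2). It was followed by Obox6 at 323 ± 23.1, Tcstv3 at 307.8 ± 0.148, Usp17lb at 287 ± 62.3, Zfp352 at 215 ± 1.47 and Obox1 at 200 ± 19.3 FPKM. Obox6, Tcstv3 and Usp17lb lay within their spread of one another. Zscan4d, the most abundant of its family, reached 82.3 ± 17.4 FPKM. Fgf1 was at 10.8 FPKM and Dux at 1.18 ± 0.318 FPKM, and Tcstv1 had no count there. The set took 0.477% and 0.504% of all counts in late 2-cell controls. The share was 0.112% to 0.134% in late 8-cell controls. Of the 30 detected members, 25 had their highest group mean in a late 2-cell group, 13 in the controls and 12 with siRNA. The 5 exceptions were Obox6, Tcstv1, Tdpoz8, Sp110 and Dux. No sample was earlier than late 2-cell, so the switching on of the members was not observed.

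**Figure D1:**
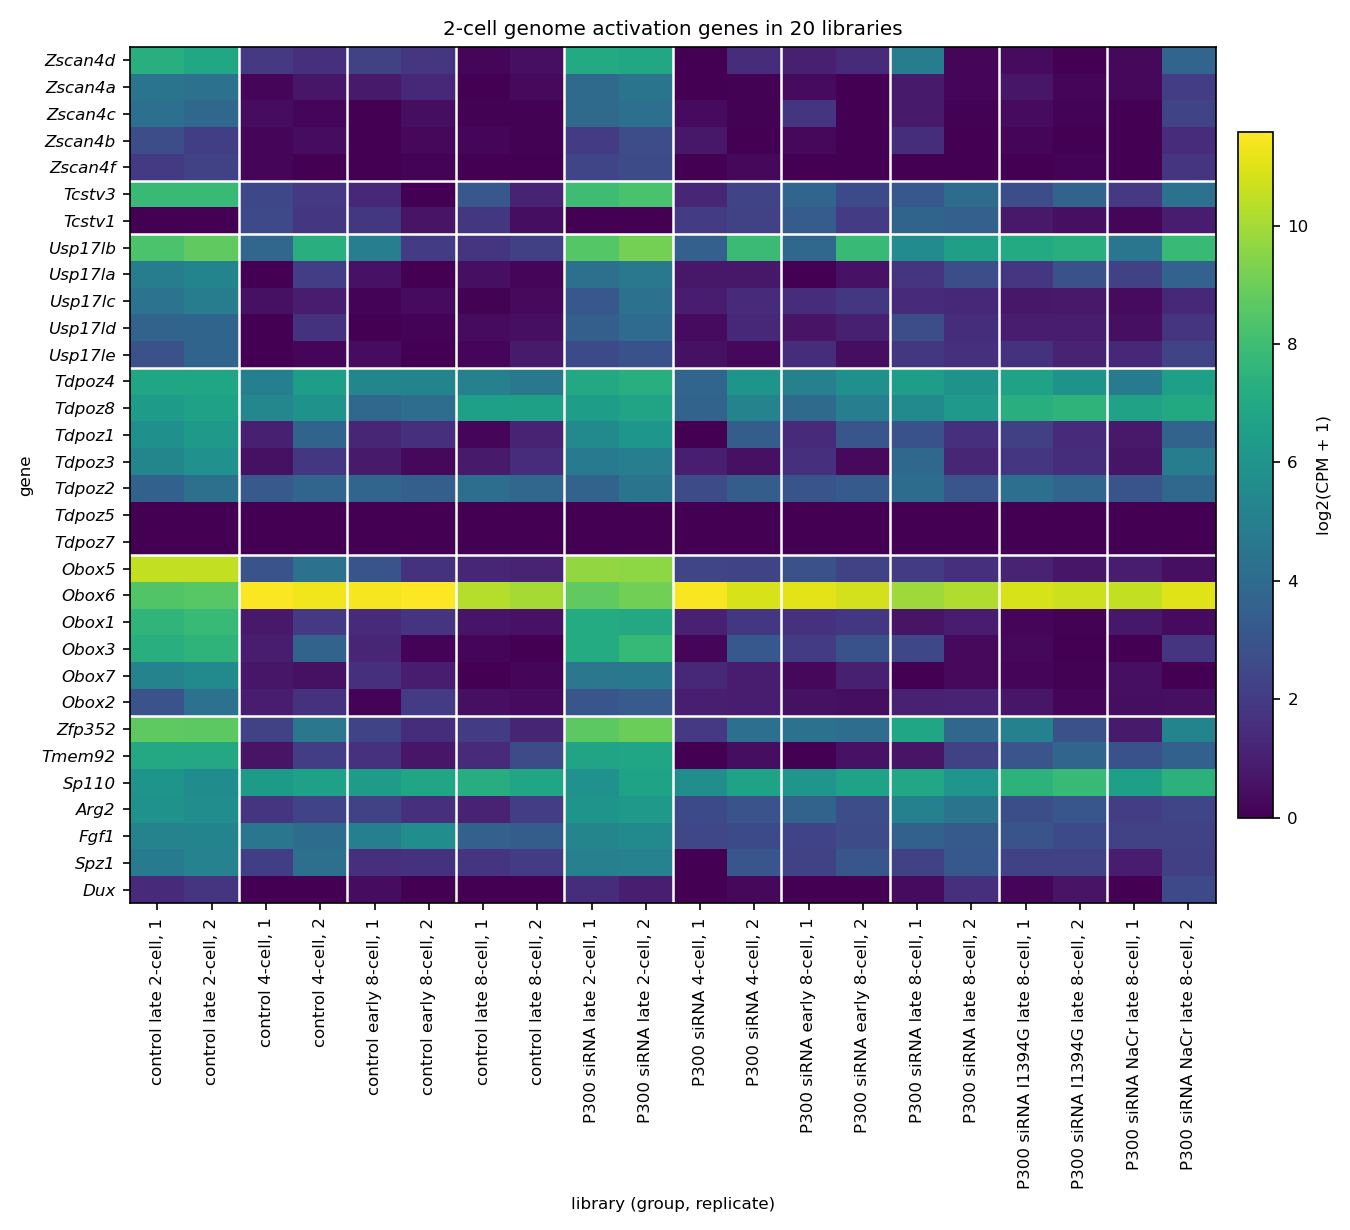
Level of all 32 genes (vertical) in all 20 libraries (horizontal), coloured by log2(CPM + 1). For 25 genes the highest group mean is in one of the late 2-cell groups, Obox6 is bright from the 4-cell stage on, and siRNA late 8-cell replicate 1 and NaCr replicate 2 show members that are dark in the late 8-cell controls.

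Most of the set fell sharply between the late 2-cell and 4-cell stages, with or without P300 siRNA, while Obox6 and Tcstv1 rose. In controls 22 of 30 members were called lower and 2 higher, against 34.2% and 27% of all genes. With siRNA 23 were called lower and 2 higher, against 31.5% and 27% of all genes. A call here means an adjusted p under 0.05 in edgeR's quasi-likelihood test with Benjamini-Hochberg adjustment over the 16603 genes tested. The median log2 change of the members was -4.45 in controls (all genes -0.40) and -3.83 with siRNA (all genes -0.25). Placing the genes at 0 in a group at their bound gave -4.33 in controls. Scaling by DESeq2 size factors moved the median of all genes by -0.25 in controls and -0.26 with siRNA in this step. The oocyte markers, maternal transcripts that are cleared in the same interval, also fell, with 7 of 9 called lower in controls. They are a separate list, and their part in the members' shares of counts was not tested.

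The Obox family split. Obox5 lay at 1444 and 1440 CPM in late 2-cell controls, at 6.82 and 19.2 CPM at the 4-cell stage and at 1.39 and 1.16 CPM at the late 8-cell stage. Its first step was a fall by 6.76 ± 0.49 on the log2 scale (SE, adjusted p = 1.88e-09 in controls). Obox1, at 191 and 220 CPM and then 0.723 and 2.84 CPM, fell by 6.72 ± 0.49 in controls. Obox7, Obox3 and Obox2 fell by 6.30, 4.65 and 3.02 on the same scale and were also called. The Obox2 call ended without 4-cell control replicate 1 (adjusted p = 0.0682) or late 2-cell control replicate 2 (0.121). Obox6 did the reverse. It stood at 346 and 384 CPM in late 2-cell controls and at 2914 and 2579 CPM in 4-cell controls, a rise of 2.91 ± 0.23 (log2, adjusted p = 6.37e-09). With siRNA it went from 434 and 551 CPM to 2854 and 1901 CPM, a rise of 2.27 ± 0.23. Because of Obox6, the Obox family sum at the 4-cell stage was 131% and 117% of the late 2-cell mean in controls, while the other 5 Obox genes together kept 0.525% and 1.96%. The direction of the family sum turned with the measure, since the summed FPKM at the 4-cell stage was 93% of that at the late 2-cell stage. Obox6 then fell again in controls, from 2736 and 3054 CPM at the early 8-cell stage to 1236 and 1028 CPM at the late 8-cell stage (log2 difference -1.35 ± 0.22, adjusted p = 0.000273).

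The Zscan4 genes encode SCAN-domain zinc-finger proteins tied to telomere maintenance. Zscan4d was at 159 and 118 CPM in late 2-cell controls and at 2.79 and 1.92 CPM in 4-cell controls. The log2 change was -5.91 ± 1.46 (adjusted p = 0.00205 in edgeR). The 5 Zscan4 genes together kept 1.87% and 1.66% of the late 2-cell level at the 4-cell stage in controls, and 0.571% and 1.21% with siRNA. Dux, which is known to act upstream of Zscan4, had 22 and 23 counts in late 2-cell controls and 0 in both 4-cell controls. Against a floor of 3 counts over the group it was at least 21.1-fold lower. Leaving out 4-cell control replicate 2 gave it an adjusted p of 0.086. For Zscan4b, the adjusted p in controls was 0.0467, and leaving out any of the 4 libraries ended the call (adjusted p 0.0689 to 0.146). For Zscan4f, leaving out 4-cell control replicate 2 gave 0.0773.

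Tcstv3, one of the 2-cell-stage variable group of unknown function, was at 228 and 229 CPM and then at 4.65 and 2.80 CPM in controls, a log2 change of -5.98 ± 0.95. Its relative Tcstv1 ran the other way. No late 2-cell library of either arm held a count for it, and 4-cell controls held 4.96 and 2.52 CPM, at least 28.9-fold more (adjusted p = 0.000773). With siRNA the 4-cell level was 3.21 and 3.78 CPM, at least 21.4-fold more. Tcstv1 shared 16.8% of its 50-base windows with another gene, and how far reads were divided between the copies was not tested.

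Zfp352, a zinc-finger gene, held 411 and 408 CPM at the late 2-cell stage and 3.92 and 23.1 CPM at the 4-cell stage in controls (log2 change -4.87 ± 1.25). Tmem92, which encodes a membrane protein, went from 126 CPM in both late 2-cell controls to 0.516 and 3.25 CPM (log2 change -5.92). With siRNA it was at 0 and 0.366 CPM at the 4-cell stage and its log2 change was -8.77. Arg2, the mitochondrial arginase, fell from 59.7 and 49.6 CPM to 2.48 and 4.03 CPM in controls, by 4.04 ± 0.50. These 3 calls held in both arms.

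The Usp17l genes encode deubiquitinating enzymes and did not leave evenly. In controls Usp17le, Usp17lc, Usp17la and Usp17ld were called lower, with log2 changes of -6.57, -5.19, -4.13 and -3.31. Usp17lb, the most abundant, was at 315 and 431 CPM and then at 13.3 and 155 CPM. Its log2 change of -2.14 ± 1.29 was not called (adjusted p = 0.158). With siRNA Usp17lb was at 10.9 and 234 CPM at the 4-cell stage. Replicate 2 held the higher level in both 4-cell groups, and the family kept 3.05% and 35.9% of its late 2-cell level in controls, and 2.53% and 45.8% with siRNA. The same library of each arm was the higher one for Zfp352, Obox3, Spz1 and Tdpoz1.

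The Tdpoz genes encode proteins with TRAF and POZ domains. They kept more of their late 2-cell level than the Zscan4 or Tcstv genes, at 24.4% and 51.7% in 4-cell controls and 9.08% and 34.7% with siRNA. In controls Tdpoz3 was called lower (log2 change -4.85), and so was Tdpoz1 (-3.21, adjusted p = 0.032). Leaving out 4-cell control replicate 1 or either late 2-cell control ended the Tdpoz1 call (adjusted p 0.0528 to 0.151). Tdpoz4 (-0.96) and Tdpoz8 (-0.88) were not called in controls. With siRNA Tdpoz8 went from 85.7 and 107.7 CPM to 11.9 and 35.2 CPM, a called fall of 2.02 (adjusted p = 0.000351). Tdpoz2, Sp110 and Spz1 were not called in controls. Sp110, a nuclear body gene, ranged from 48.7 to 227 CPM over the 20 libraries.

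**Figure D2:**
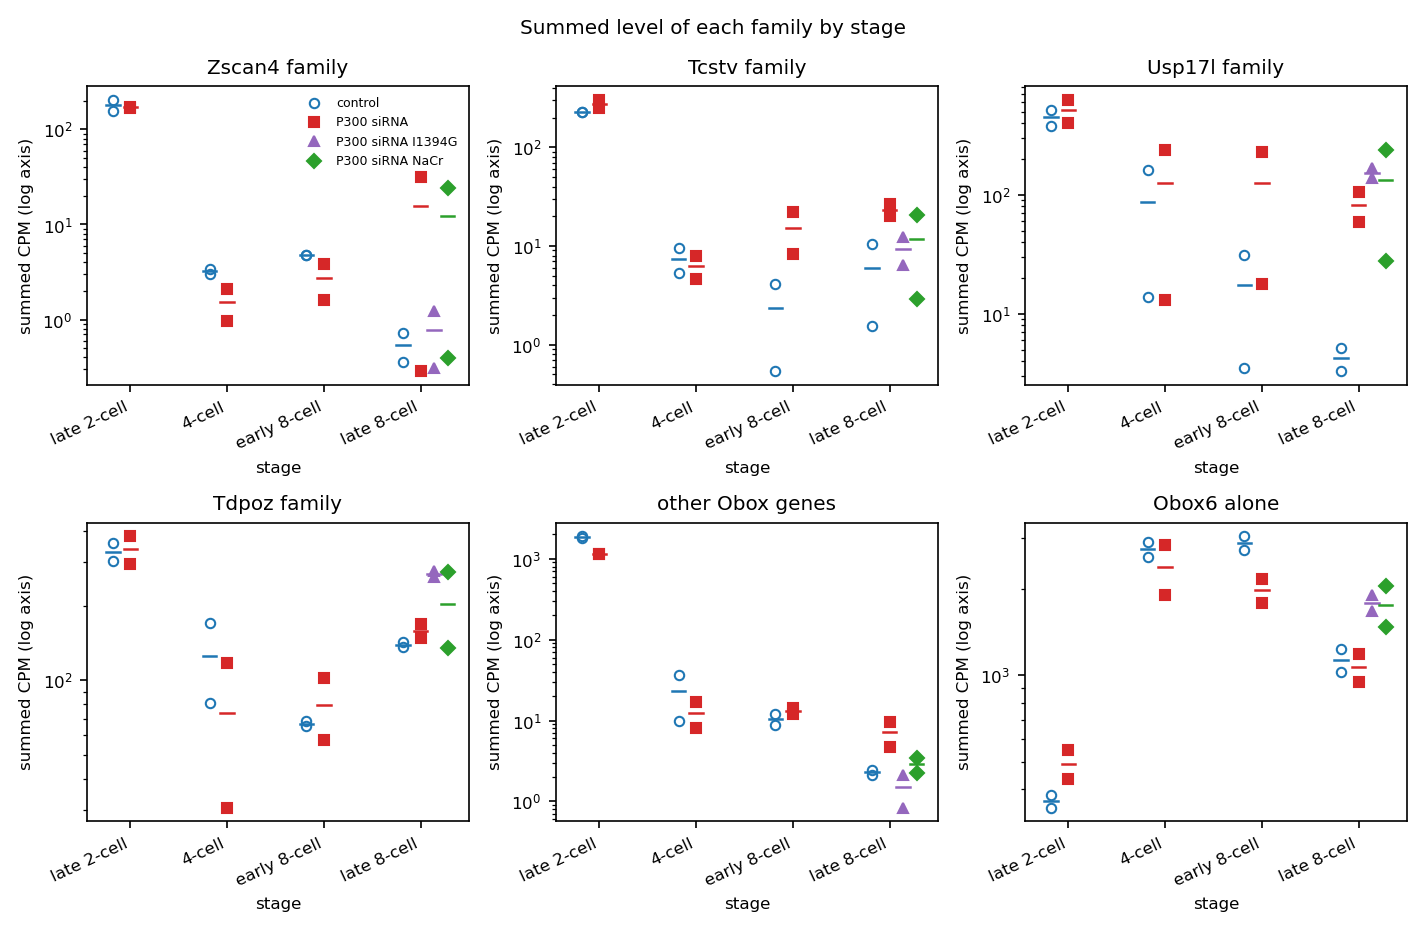
Summed CPM of each family (log axis) in each group, 1 point per library and a dash at the mean, with Obox6 shown apart from the other Obox genes. Zscan4, Tcstv and the other Obox genes drop after the late 2-cell stage in both arms, Usp17l and Tdpoz differ widely between the 2 libraries of a 4-cell group, and Obox6 rises.

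From the 4-cell to the early 8-cell stage no member was called in either arm, against 1.13% of all genes in controls and 0.494% with siRNA. At an unadjusted p under 0.05 there were 7 members in controls (13.1% of all genes) and 0 with siRNA (4.16%). DESeq2's Wald test called 3 members in controls and 0 with siRNA. The member with the lowest p in controls was Tdpoz8, at 39.4 and 58.2 CPM and then 14.3 and 16.5 CPM (log2 change -1.67 ± 0.41, edgeR adjusted p = 0.0547). From the early to the late 8-cell stage 5 members were called lower in controls (11.2% of all genes) and 1 higher (15% of all genes). Tdpoz8 came back to 92.2 and 96.0 CPM, a rise of 2.61 ± 0.42 (adjusted p = 0.000231). Fgf1 fell from 31.1 and 50.3 CPM to 10.6 and 9.76 CPM, by 2.0 ± 0.32 (adjusted p = 0.00025). The other falls were those of Obox6, Obox7 (by 4.05 ± 1.0), Obox1 (by 1.90) and Obox5 (by 1.85 ± 0.51). The last 3 lost their call when single libraries were left out, at adjusted p of 0.0503 and 0.0712 for Obox7, 0.0676 to 0.138 for Obox1 and 0.0532 to 0.335 for Obox5.

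In siRNA embryos the same step looked different, with 5 members called higher (6.79% of all genes) and 1 lower (6.17%). The higher ones were Usp17la (log2 difference 4.36 ± 1.33), Tmem92 (3.65 ± 1.15), Arg2 (1.60 ± 0.46), Tdpoz8 (1.47 ± 0.40) and Fgf1 (1.09 ± 0.34), and the lower one was Obox6 (-0.89 ± 0.22). All 6 lay close to the threshold, with adjusted p from 0.0131 for Obox6 to 0.045 for Tmem92. Each lost its call when at least 2 of the 4 libraries were left out in turn, and all 6 did in a fit to the 4 libraries alone. Leaving out siRNA late 8-cell replicate 2, for example, took the Tmem92 difference to 1.35 (adjusted p = 0.786). Whether an arm's step differed from the other's was tested as an interaction. In the main edgeR fit, Fgf1 alone of the 30 members passed it (log2 difference between the siRNA effects 3.08 ± 0.46, adjusted p = 0.00195). Of all genes, 3.01% passed in this direction.

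At the late 2-cell stage itself, no difference between siRNA and control embryos passed the test for any member. No gene of the set was called in either direction, against 0.00602% of all genes, and the members' median log2 difference was 0.03 (all genes -0.04). At an unadjusted p under 0.05 there was 1 member (4.15% of all genes), DESeq2's Wald test and limma on FPKM called 0, and a fit to these 4 libraries alone called 4. The member was Obox5, at 1444 and 1440 CPM in controls and 838 and 781 CPM with siRNA. Its libraries did not overlap, and its log2 difference was -0.83 ± 0.38 (adjusted p = 1 in edgeR's quasi-likelihood test). Both Obox6 libraries of the siRNA group lay above those of the control group, as listed above. Zscan4d was at 159 and 118 CPM in controls and 134 and 121 CPM with siRNA, with overlap. Zfp352 was at 411 and 408 CPM against 407 and 504 CPM. Tcstv3 was at 228 and 229 CPM against 248 and 305 CPM, with both siRNA libraries higher. Usp17lb, at 315 and 431 against 364 and 568 CPM, and Tdpoz4, at 115 and 111 against 125 and 156 CPM, were not called either. Summed oocyte markers were lower with siRNA at this stage, at 3476 and 3574 CPM against 4864 and 5041 CPM in controls, and their part in these relative levels was not tested.

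At the 4-cell stage 2 of 30 members were called lower with siRNA and 0 higher, against 7.25% and 7.77% of all genes. The members' median log2 difference was -0.41, against 0 for all genes. Fgf1, a fibroblast growth factor, lay at 22.0 and 16.1 CPM in controls and at 4.46 and 5.12 CPM with siRNA. The groups were well apart, and the log2 difference was -1.98 ± 0.33 (edgeR adjusted p = 0.000991). The call held when any 1 of the 4 libraries was left out, and a fit to these 4 libraries alone gave an adjusted p of 0.111. Obox5 was at 6.82 and 19.2 CPM in controls and 4.32 and 4.14 CPM with siRNA, a log2 difference of -1.66 ± 0.44 (adjusted p = 0.0186). That call rested on single libraries: without 4-cell control replicate 2 the difference was -0.69 (adjusted p = 0.379), and without either siRNA library the adjusted p was 0.0654 or 0.0936. Tmem92 (log2 difference -3.04 ± 1.08, adjusted p = 0.0653) and Tdpoz8 (-1.03 ± 0.39, adjusted p = 0.085) did not pass. No Zscan4, Tcstv or Usp17l gene was called at this stage.

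At the early 8-cell stage 1 member was called lower with siRNA and 3 higher, against 8.3% and 8.21% of all genes. Fgf1 was again the lower one, at 31.1 and 50.3 CPM in controls and 4.09 and 5.16 CPM with siRNA (log2 difference -3.14 ± 0.34, edgeR adjusted p = 1.94e-05). It kept its call under every alternative tried. The higher ones were Arg2, Usp17lc and Tcstv3. Arg2 was at 3.94 and 2.06 CPM in controls and 11.9 and 5.62 CPM with siRNA, a log2 difference of 1.56 ± 0.48 (adjusted p = 0.0336). Tcstv3 was at 1.48 and 0 CPM against 12.7 and 5.05 CPM (3.64 ± 1.08, adjusted p = 0.0272). Usp17lc was at 0.0984 and 0.269 CPM against 1.74 and 2.64 CPM (3.48 ± 0.90, adjusted p = 0.0127). The siRNA libraries of these 3 genes lay above both controls. All 3 calls ended without control replicate 2 (adjusted p 0.247 for Arg2, 0.2 for Tcstv3 and 0.0531 for Usp17lc). Those of Arg2 and Tcstv3 also ended without siRNA replicate 1 (0.328 and 0.17), and that of Usp17lc without control replicate 1 or siRNA replicate 2 (0.0825 and 0.0567). The median log2 difference of the members was 0.23, against 0.04 for all genes. The preimplantation markers moved with the group at both stages, with 5 of 9 called lower at the 4-cell stage and 6 of 9 at the early 8-cell stage. Their sum at the early 8-cell stage was 4913 and 4959 CPM with siRNA and 9551 to 11072 CPM in controls, and their part in the members' levels was not tested.

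**Figure D3:**
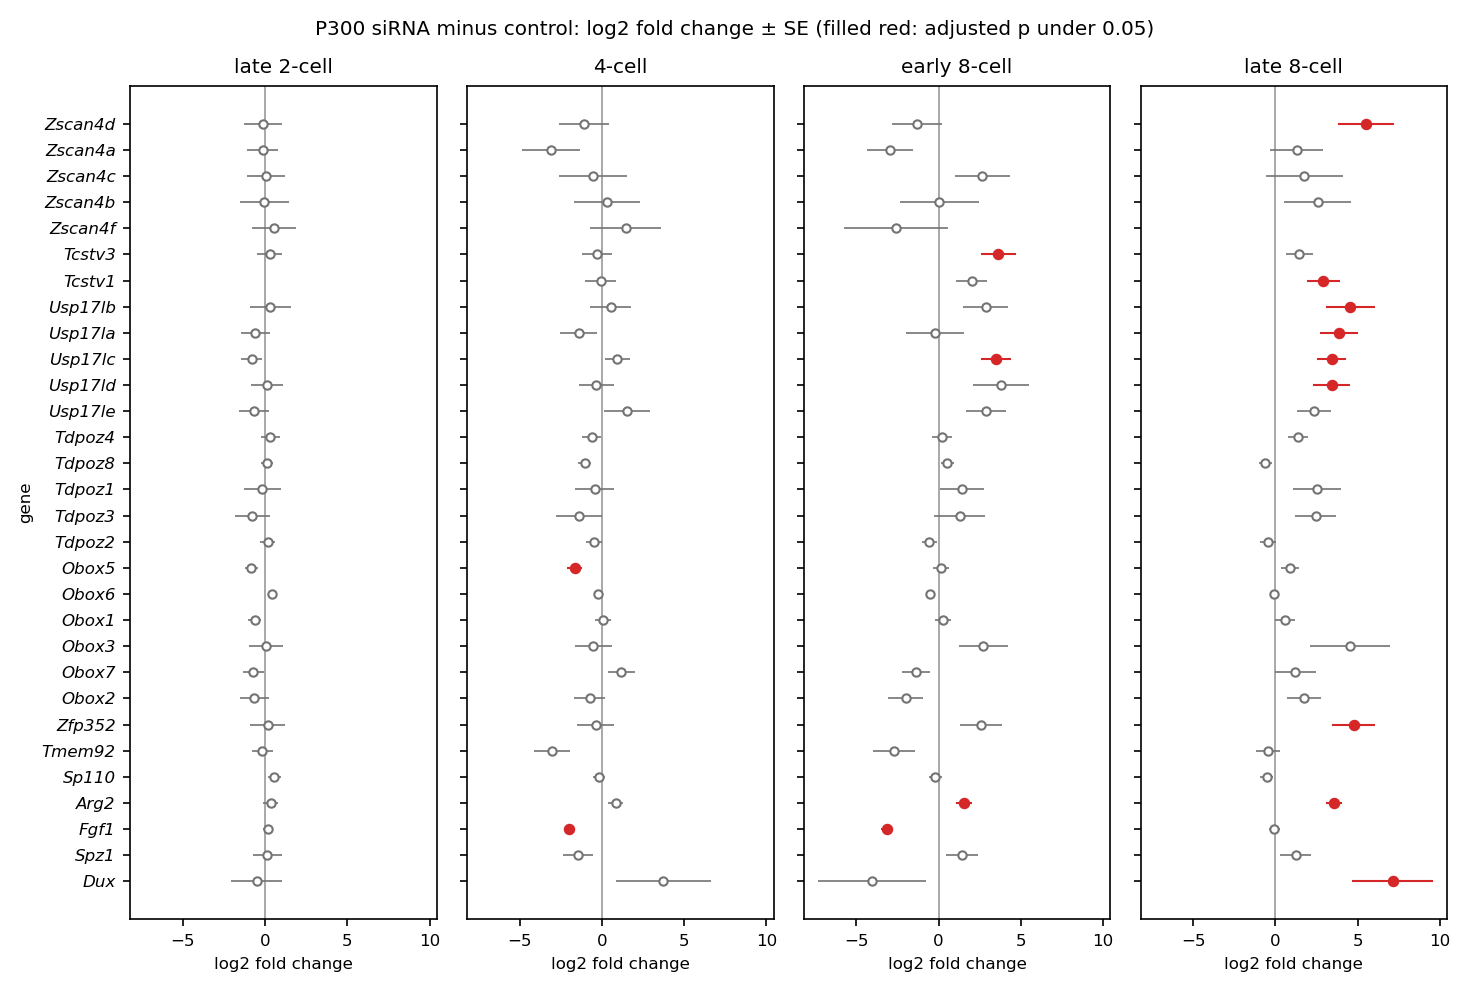
Log2 difference between siRNA and control libraries for each member (vertical) at the 4 stages (panels), with bars of 1 SE, and filled red points where the adjusted p is under 0.05. No point is filled at the late 2-cell stage, 2 are at the 4-cell stage, 4 at the early 8-cell stage and 9 at the late 8-cell stage, all 9 to the right of 0.

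At the late 8-cell stage, where most members were near 0 in controls, Arg2, Zfp352, several Usp17l genes and Tcstv1 were higher in siRNA embryos. With siRNA 9 of 30 members were called higher and 0 lower, against 13.6% and 14.3% of all genes. The members' median log2 difference was 1.75, against 0.06 for all genes. DESeq2 size factors moved the median of all genes by 0.14 here and took the share of higher calls among all called genes from 48.8% to 58.4%. In 15 members both siRNA libraries lay above both controls (32.8% of all genes did), and in 1 member both lay below (33.4% of all genes). The set took 0.178% and 0.192% of counts with siRNA at this stage. These are shares of raw counts, before the TMM factors (1.18 and 1.21 with siRNA, 0.858 and 0.854 in controls), so they do not show a higher level of the set. Obox6, its most abundant member there, overlapped between the groups, at 948 and 1182 CPM with siRNA and 1236 and 1028 CPM in controls.

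Arg2 carried the firmest of these differences. It was at 1.23 and 3.31 CPM in late 8-cell controls and 33.2 and 20.9 CPM with siRNA, a log2 difference of 3.56 ± 0.50 (edgeR adjusted p = 7.1e-05). It was the one member whose call survived leaving out any of the 4 libraries. The change in its siRNA effect from the early to the late 8-cell stage, 2.0 ± 0.67 on the log2 scale, did not pass the test (adjusted p = 0.0773).

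The Usp17l family held 4 of the 9 calls. Usp17lb was at 2.46 and 3.64 CPM in controls and 46.7 and 95.2 CPM with siRNA, a log2 difference of 4.56 ± 1.5 (adjusted p = 0.0311). Usp17la rose from 0.411 and 0.165 CPM to 2.39 and 5.88 CPM (3.88 ± 1.15), Usp17lc from 0.0513 and 0.221 CPM to 1.59 and 1.51 CPM (3.44 ± 0.88), and Usp17ld from 0.257 and 0.386 CPM to 5.58 and 1.88 CPM (3.41 ± 1.15). Summed over the 5 genes, the late 8-cell level was 3.29 and 5.18 CPM in controls and 58.9 and 106 CPM with siRNA. The groups were far apart there. At the early 8-cell stage they overlapped, at 31.1 and 3.499 CPM in controls and 17.8 and 231 CPM with siRNA. The family's median log2 difference was 2.88 at the early and 3.44 at the late 8-cell stage. No Usp17l gene was called for the change in siRNA effect between these stages (median -0.04). These copies share from 19.6% (Usp17la) to 51.1% (Usp17ld) of their 50-base windows with another gene.

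Zfp352 was at 3.18 and 1.27 CPM in late 8-cell controls and 112.6 and 13.3 CPM with siRNA, a log2 difference of 4.76 ± 1.31 (adjusted p = 0.0124). Tcstv1 was at 2.67 and 0.331 CPM against 12.2 and 10.8 CPM (2.92 ± 0.98, adjusted p = 0.0357). For both genes the 2 siRNA libraries lay above both controls. Zscan4d did not separate the groups. It stood at 0.154 and 0.386 CPM in controls and at 27.9 CPM in the first siRNA library but 0.123 CPM in the other. Its call (log2 difference 5.48 ± 1.70, adjusted p = 0.0232) rested on replicate 1, and without that library the difference was -1.07 (adjusted p = 0.781). Dux had no count in either control and 1 and 50 counts with siRNA, which makes it at least 14.5-fold higher against a floor of 3 counts over the group (adjusted p = 0.0422). The Dux call ended with the replicate number as a block (adjusted p = 0.0556), with limma on FPKM (0.216) and without any 1 of the 4 libraries (0.05 to 0.372). Dux was higher in the siRNA library where Zscan4d was at control level, and low in the one where Zscan4d was high.

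The summed Zscan4 level, at 31.3 and 0.286 CPM with siRNA against 0.359 and 0.717 CPM in controls, is mostly Zscan4d and adds no separate value. Zscan4d had 105 counts in siRNA replicate 1, where Zscan4a, Zscan4b and Zscan4c had 3, 7 and 3. Tdpoz3 and Obox3 had the same order as Zscan4d, at 14.1 and 1.39 CPM and at 4.78 and 0.245 CPM. Usp17la, Usp17lb and Tmem92 had the reverse order, with Tmem92 at 0.531 and 3.68 CPM. Replicate 1 was also the shallowest of all libraries, at 3.20 M counts.

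**Figure D4:**
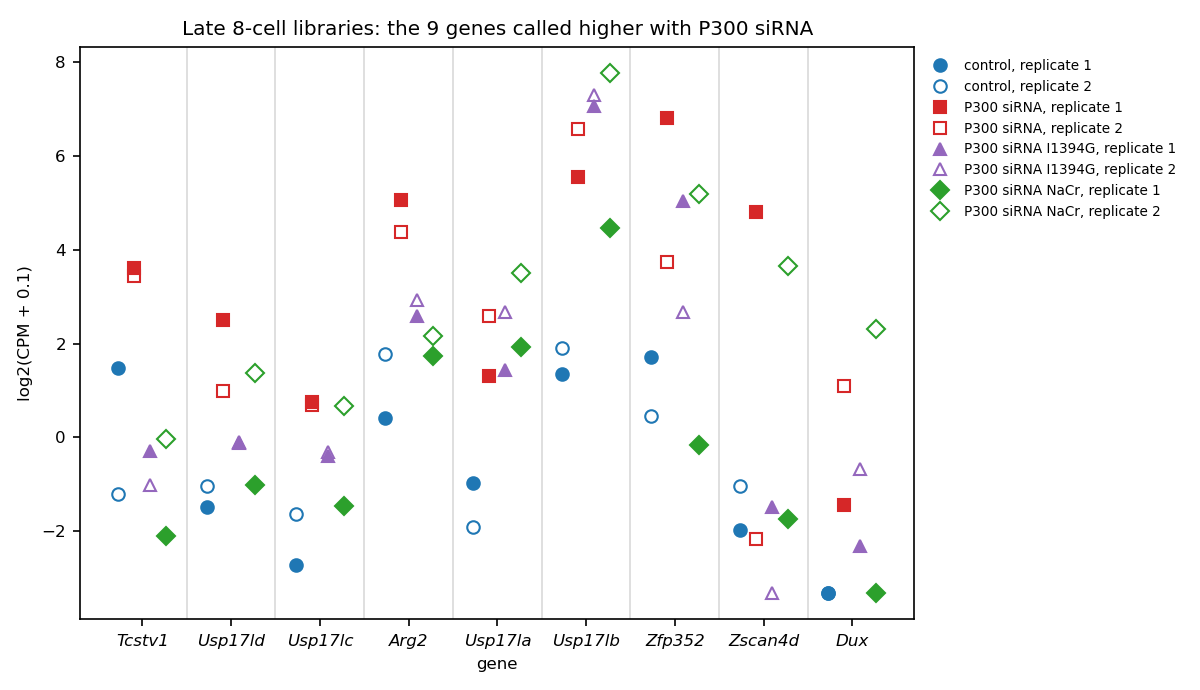
The 9 members called higher with siRNA at the late 8-cell stage, plotted as log2(CPM + 0.1) in the 8 late 8-cell libraries, with replicate 1 filled and replicate 2 open. Arg2 separates siRNA from controls in both libraries, while Zscan4d is high in siRNA replicate 1 and NaCr replicate 2 only, and Dux in siRNA replicate 2 and NaCr replicate 2.

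These late 8-cell calls were sensitive to single libraries. Leaving out control replicate 1 kept Arg2 and Tcstv1 of the 9, leaving out control replicate 2 kept Arg2 and Usp17lc, leaving out siRNA replicate 1 kept 4 and leaving out siRNA replicate 2 kept 5. With limma on FPKM 6 were kept, without Dux, Usp17lb and Zscan4d, and a fit to these 4 libraries alone kept 7, without Dux and Zscan4d. The differences of the lost genes stayed above 0 except for Zscan4d, and their adjusted p then lay between 0.05 for Dux and 0.781 for Zscan4d. Several values moved with the group. At an equal depth of 3202332 counts, 15920 and 16705 genes were detected with siRNA and 14405 and 14298 in controls. Summed oocyte markers were 26.8 and 33.7 CPM against 15.3 and 17.4 CPM, with 1 of 9 called higher. Of the cumulus or granulosa markers 3 of 8 were called higher, while their sum was 26.3 to 37.9 CPM with siRNA and 27.4 to 35.8 CPM in controls and Amh, Fshr, Has2 and Lhcgr were at or near 0 everywhere. Of the preimplantation markers, 6 of 9 were called lower. The part of each in the members' levels was not tested.

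Fgf1 had a course of its own. It fell less than most of the set in controls, where it was at 35.5 and 36.0 CPM at the late 2-cell stage, 22.0 and 16.1 CPM at the 4-cell stage, 31.1 and 50.3 CPM at the early 8-cell stage and 10.6 and 9.76 CPM at the late 8-cell stage. Its first step was a called fall by 0.91 ± 0.31 (log2, adjusted p = 0.0174), which ended without 4-cell control replicate 2 (0.124) or either late 2-cell control (0.0655 and 0.0664). With siRNA it began at 37.8 and 43.7 CPM, dropped by 3.08 ± 0.34 to 4.46 and 5.12 CPM at the 4-cell stage and then held at 4.09 and 5.16 CPM. The siRNA effect at the 4-cell stage differed from that at the late 2-cell stage by -2.17 ± 0.45 (interaction, edgeR adjusted p = 0.0142, with 1.9% of all genes passing in this direction). That interaction did not pass without late 2-cell control replicate 1 (0.0767) or 2 (0.0612) or siRNA late 2-cell replicate 2 (0.0809). At the late 8-cell stage the groups overlapped, at 10.6 and 9.76 CPM in controls and 11.2 and 8.74 CPM with siRNA (log2 difference -0.06 ± 0.32, adjusted p = 0.929). From the early to the late 8-cell stage, the interaction of 3.08 given above kept its call without each library in turn. No member was called for the change in siRNA effect from the 4-cell to the early 8-cell stage, where 0% of all genes were, with 7 members at an unadjusted p under 0.05 (7.62% of all genes) and 0 called by DESeq2's Wald test.

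**Figure D5:**
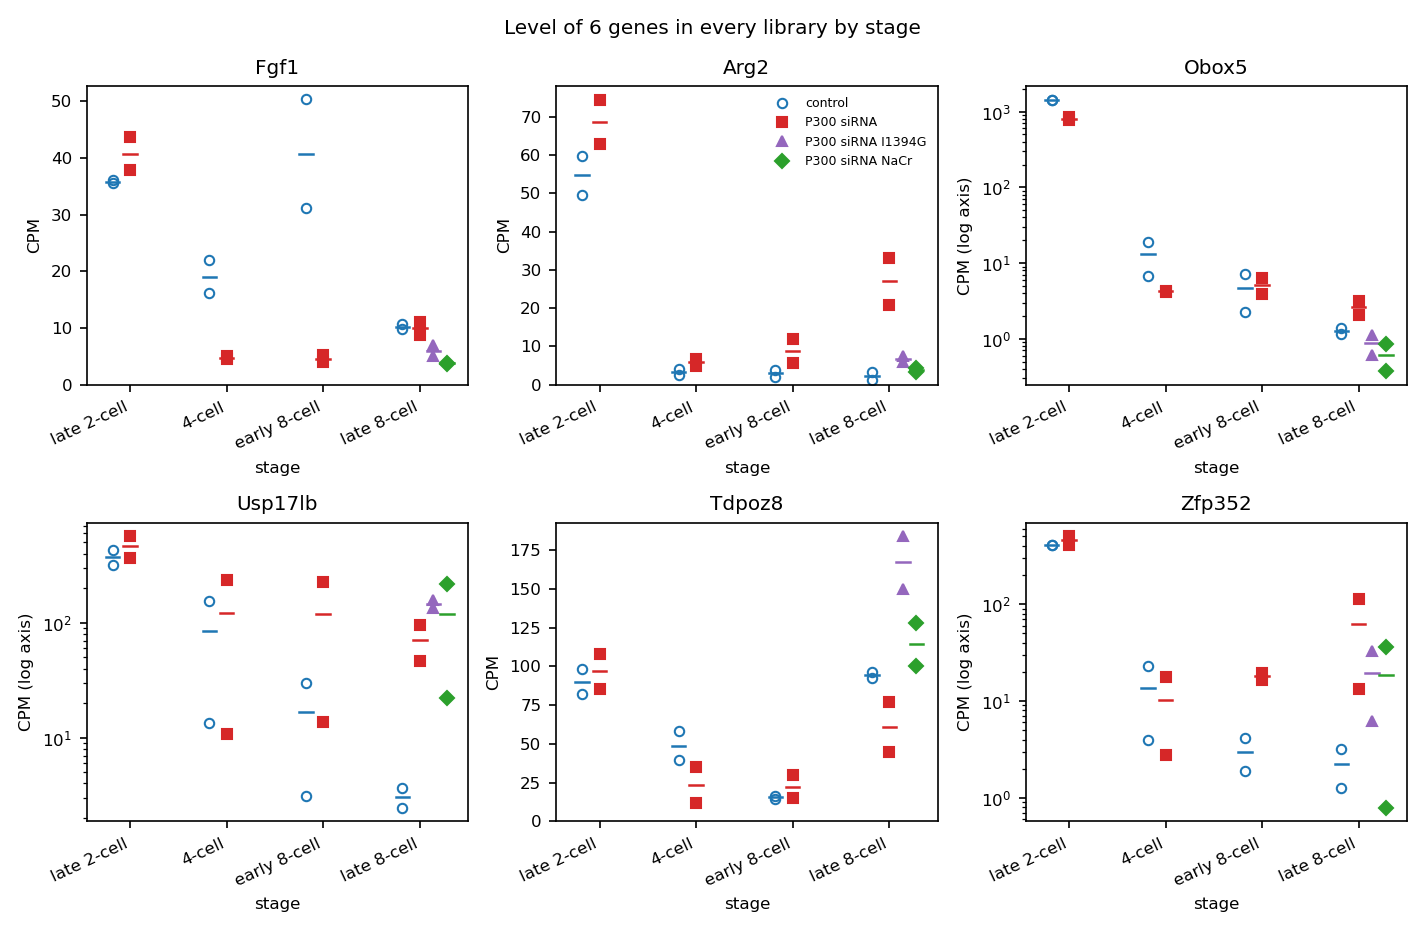
CPM of Fgf1, Arg2, Obox5, Usp17lb, Tdpoz8 and Zfp352 by stage in control and siRNA libraries, with the I1394G and NaCr groups at the right. Each library is 1 point, with a dash at each group mean. The axis is logarithmic for Obox5, Usp17lb and Zfp352 and linear for Fgf1, Arg2 and Tdpoz8. Fgf1 is lower with siRNA at the 4-cell and early 8-cell stages. Both Arg2 siRNA libraries lie above both controls at every stage, and Arg2 was called at the early and late 8-cell stages.

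The 2 treated groups were compared with the siRNA group and with the controls at the late 8-cell stage. All of these comparisons share libraries, so they are not independent of one another or of the siRNA effect above. With I1394G, 4 of 30 members were called lower than with siRNA alone and 2 higher, against 4.58% and 6.19% of all genes. Arg2 was at 5.92 and 7.53 CPM with I1394G (log2 difference from siRNA -1.99 ± 0.46, edgeR adjusted p = 0.0102). Tcstv1 was at 0.715 and 0.396 CPM (-4.35 ± 1.06, adjusted p = 0.0156), Obox1 at 0.102 and 0.044 CPM (-3.36 ± 0.81, adjusted p = 0.0134) and Zscan4d at 0.255 and 0 CPM (-6.58 ± 1.86, adjusted p = 0.0301). Tdpoz8, at 150 and 184 CPM against 44.9 and 77 CPM with siRNA, was called higher (1.44 ± 0.39, adjusted p = 0.0254), and so was Obox6, at 1904 and 1673 against 948 and 1182 CPM (0.75 ± 0.22, adjusted p = 0.0344). All 6 lost their call without either I1394G library, with adjusted p from 0.0677 to 0.211. Without siRNA replicate 1, all but Obox1 lost it, and the Zscan4d difference became -0.03. Scaling by DESeq2 size factors ended the Obox6 call and took the share of higher calls among all called genes from 57.5% to 45.3%.

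With NaCr, 3 members were called lower than with siRNA alone and 1 higher, against 6.57% and 8.77% of all genes. Arg2 was at 3.24 and 4.35 CPM with NaCr (log2 difference -2.83 ± 0.49, edgeR adjusted p = 0.000955) and kept its call without any single library. Tcstv1 was at 0.132 and 0.871 CPM (-4.65 ± 1.13, adjusted p = 0.0112), Fgf1 at 3.90 and 3.73 CPM (-1.36 ± 0.34, adjusted p = 0.0119) and Obox6 at 1470 and 2045 CPM (0.72 ± 0.22, adjusted p = 0.0313). The Tcstv1 call ended without NaCr replicate 1 (0.119). That of Fgf1 ended without siRNA replicate 1 (0.0638) or either NaCr library (0.0811 and 0.0983), and that of Obox6 without siRNA replicate 1 (0.171) or NaCr replicate 2 (0.31). The Obox6 call also ended with DESeq2 size factors. Several members differed widely between the 2 NaCr libraries, and those named here were chosen after their values were seen. Zscan4d was at 0.198 and 12.6 CPM, Zfp352 at 0.792 and 36.2 CPM, Usp17lb at 22.0 and 219 CPM, Tdpoz3 at 0.594 and 27.7 CPM, Tcstv3 at 2.77 and 19.8 CPM, and Dux at 0 and 39 counts. Replicate 2 was the higher for each of these, while Tdpoz8, at 100 and 128 CPM, and Tmem92, at 6.67 and 11.1 CPM, lay closer together. The summed Zscan4 level was 0.396 and 24.4 CPM with NaCr and 1.22 and 0.308 CPM with I1394G. Other values moved with both treated groups. Of the preimplantation markers 6 of 9 were called higher than with siRNA alone in each, with a sum of 7513 to 9749 CPM over the 4 treated libraries against 3252 and 3887 CPM. At equal depth 14353 to 14957 genes were detected in them, against 15920 and 16705 with siRNA alone. The part of either in these comparisons was not tested.

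Set against the late 8-cell controls, no member was called with I1394G (3.17% of all genes were). At an unadjusted p under 0.05 there were 11 (16.9% of all genes), DESeq2's Wald test called 5 and a fit to these 4 libraries alone called 9. The lowest p was that of Usp17lb, at 134 and 158 CPM against 2.46 and 3.64 CPM in controls, a log2 difference of 5.58 ± 1.56 with an adjusted p of 0.0602. In 17 members both I1394G libraries lay above both controls (28.9% of all genes) and in 3 below (33.1%). With NaCr 1 member was called lower (0.5% of all genes) and 0 higher (1.07%), and 14 had an unadjusted p under 0.05 (13.5%). It was Fgf1, at 3.90 and 3.73 CPM against 10.6 and 9.76 CPM (log2 difference -1.41 ± 0.33, adjusted p = 0.0376). The call ended without any 1 of the 4 libraries (adjusted p 0.196 to 0.328). Arg2 lay at 5.92 and 7.53 CPM with I1394G and 3.24 and 4.35 CPM with NaCr, against 1.23 and 3.31 CPM in controls, and was not called in either. Summed cumulus or granulosa markers were 61.1 to 70.7 CPM with I1394G and 57.2 to 76.6 CPM with NaCr, and their part in these values was not tested.

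Genes known to act in or around the 2-cell programme were counted as a wider list of 52 regulators, all tested. With siRNA 0 of 52 were called at the late 2-cell stage (0.00602% of all genes). At the 4-cell stage 12 were lower (23.1%, against 7.25% of all genes) and 0 higher (7.77% of all genes). At the early 8-cell stage 13 were lower (25%, against 8.3%) and 2 higher (3.85%, against 8.21%), and at the late 8-cell stage 16 lower (30.8%, against 14.3%) and 5 higher (9.62%, against 13.6%). At the 4-cell stage Nr5a2, an orphan nuclear receptor with a role in genome activation, was at 71.5 ± 10.1 CPM with siRNA and 238 ± 8.75 CPM in controls (SD, n = 2; log2 difference -1.74). Myc was at 4.90 ± 0.558 against 47.1 ± 5.79 CPM (-3.27), Tfap2c, a trophectoderm factor, at 43.5 ± 3.87 against 128 ± 19.7 CPM (-1.56), and Kdm2b, a histone demethylase, at 48.7 ± 1.39 against 104 ± 4.54 CPM (-1.10). At the early 8-cell stage Myc, Nr5a2 and Tfap2c were again lower (-4.39, -1.72 and -1.77), and Trp53 was higher at 119 ± 29.2 against 31.4 ± 13.8 CPM (1.93). At the late 8-cell stage Tet2, a 5-methylcytosine dioxygenase, was at 13.2 ± 0.448 against 120 ± 9.01 CPM (-3.18), and Dppa3, a maternal chromatin protein, at 3305 ± 418 against 6999 ± 375 CPM (-1.08). All of these passed the edgeR test at an adjusted p of 0.00403 or less. With I1394G 9 regulators were called higher (17.3%, against 6.19% of all genes) and 2 lower (3.85%, against 4.58%) than with siRNA alone, and with NaCr 12 higher (23.1%, against 8.77%) and 5 lower (9.62%, against 6.57%). Against controls 1 of 52 (1.92%) was called lower and 0 higher in each treated group, where 3.17% of all genes were called in either direction with I1394G and 0.5% lower with NaCr. In both it was Tet2 (log2 difference -2.08 with I1394G and -1.43 with NaCr).

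A second list held 79 other genes of early genome activation, of which 57 were tested. With siRNA 0 were called at the late 2-cell stage (0.00602% of all genes). At the 4-cell stage 14 were lower (24.6%, against 7.25% of all genes) and 2 higher (3.51%, against 7.77%), and at the early 8-cell stage 9 lower (15.8%, against 8.3%) and 4 higher (7.02%, against 8.21%). At the late 8-cell stage 9 were lower (15.8%, near the 14.3% of all genes) and 17 higher (29.8%, against 13.6%). Alppl2, an alkaline phosphatase, was lower at the last 3 stages, with log2 differences of -1.30, -1.32 and -2.01. Trim43a, of a tripartite-motif family, was lower at the early and late 8-cell stages (-1.05 and -1.83), as was Dppa2, a known activator of Dux, at the early 8-cell stage (-1.10). Trim43b and Calcoco2 were lower at the late 8-cell stage (-1.46 and -2.31). The 4 genes named at that stage had the lowest adjusted p of the list, and none of the 17 called higher is among them. At the 4-cell stage Xlr3a (2.33) and Zfp560 (1.67) were higher and Pdxk lower (-0.89). With I1394G 10 of this list were called higher (17.5%, against 6.19% of all genes) and 3 lower (5.26%, against 4.58%) than with siRNA. With NaCr 10 were higher (17.5%, against 8.77%) and 2 lower (3.51%, against 6.57%). Trim43a rose by 1.40 and 1.41 and Alppl2 by 1.59 and 1.92 in the 2 comparisons. Against controls 5 were higher with I1394G (8.77%, where 3.17% of all genes were called in either direction) and 6 with NaCr (10.5%, against 1.07% higher), and 0 were lower. Gm5662 (2.95 and 2.74) and Gm8300 (4.24 and 4.94) were called in both. Dppa2, Dppa4 and Zfp809 stand on both lists, and neither list was tested as a set.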

How the data were processed

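The authors deposited raw counts per gene and, in a second table, FPKM values, which are scaled to transcript length and library size. Build mm9 and the tools HISAT2 2.2.1, Cufflinks 2.2, cutadapt 4.1 and bcl2fastq 2.20.0.422 are listed in the submitters' processing notes. How reads that match several copies were counted, and whether strand was used, is not given in the sources used here.

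The count analysis ran in edgeR 4.0.16 (R 4.3.3). The default low-count filter by group left 16603 of 25208 genes. TMM-scaled library sizes gave the CPM printed here. All 20 libraries entered 1 negative binomial model with a term for each group (10 residual and 7.98 prior degrees of freedom). Its 17 contrasts used edgeR's quasi-likelihood F test, two-sided, with Benjamini-Hochberg adjustment over all genes tested and a call under 0.05. The SE is the size of the log2 fold change over the square root of F. The floor of 3 counts covers counting error only.

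The members, lists, marker genes and motifs were chosen with earlier results of these data known. Named genes are every single gene, the most abundant member of each family in late 2-cell controls, up to 8 called members per comparison by size of change (the lowest p where none was called), and up to 4 called genes of each wider list by adjusted p. Other genes given values, such as Tdpoz3 and Obox3 by library, were named after their values were seen. The test was tested on simulated data for the late 8-cell siRNA comparison with 15577 genes. It recovered 64% of 4-fold and 12% of 2-fold changes with 4 false calls, so a gene without a call is not an unchanged gene. Simulated levels were each gene's mean over all 20 libraries, and only genes above a minimum mean count were changed. The simulated spread was the trend over genes of a similar level, not each gene's own. These shares may therefore not hold for members at a few counts or for members that spread more widely between libraries. Alternatives were DESeq2 1.42.0 size factors in edgeR, its Wald test, no filter, a replicate block, limma 3.58.1 on log2(FPKM + 1) (genes with an FPKM of at least 1 in 2 or more libraries), a fit to the compared libraries only, and leaving out each library. Shared 50-base windows were counted in reference transcripts, and promoter windows came from RefSeq (GRCm38.p6), a build other than that of the counts, so no coordinate was carried over.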

Additional observations from a re-analysis of the deposited data

Results flagged for a closer look

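For Fgf1, the effect of P300 siRNA changed between stages by more than the spread between libraries on 2 tests of the difference itself. The siRNA effect at the 4-cell stage minus that at the late 2-cell stage was -2.17 on the log2 scale (edgeR adjusted p = 0.0142). The siRNA effect at the late 8-cell stage minus that at the early 8-cell stage was 3.08 (adjusted p = 0.00195). The first call ended with limma on FPKM and in a fit to the compared libraries alone. It also ended without late 2-cell control replicate 1 or 2 or siRNA late 2-cell replicate 2. The second call was kept under every alternative. In the main fit, Fgf1 was the one member with such a difference under edgeR's quasi-likelihood test among the 30 tested. Without the low-count filter, the same test called more members in both cases. Both tests use the siRNA and control libraries already described, and they share none with each other. They come from 1 fit to all 20 libraries with a shared estimate of the spread, so they are not independent.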

How the results depend on the processing

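Whether replicate numbers pair the libraries is not stated in the labels. Control and siRNA libraries of the same number had deviations correlated at 0.143, 0.369, 0.0517 and 0.0612 over the 4 stages. Over all 45 pairs of groups, 9 such correlations were over 0.1 and 6 were under -0.1. The main fit had no block for the number, and a fit with it served as an alternative. With the replicate block, 4 members were called at the 4-cell stage (2 without it), 1 from the 4-cell to the early 8-cell stage in controls (0 without it) and 1 for I1394G against control (0 without it). The block ended the calls of Dux at the late 8-cell stage (adjusted p = 0.0556) and of Zscan4b in the first control step (0.0627), and no other call of a member. Without the low-count filter, which every member with a count had already passed, the calls at the 4-cell, early 8-cell and late 8-cell stages were 5, 14 and 16. They were 10 and 12 for the control steps from 4-cell to early 8-cell and on to late 8-cell, and 1 and 13 for the same steps with siRNA. The interactions then had 2, 7 and 10 calls, I1394G and NaCr against siRNA 13 each, and against control 11 and 16. A fit to the compared libraries only called 4 members at the late 2-cell stage and 0 at the 4-cell stage. It called 0 for the siRNA step from early to late 8-cell, 0 for the first interaction, 3 and 2 for I1394G and NaCr against siRNA, and 9 and 5 against control. Over all genes that fit called 59 at the 4-cell stage, against 2494. All other counts of calls under alternatives or with libraries left out, here and above, are given without the share of all genes. They show only how the calls moved with the setting. With limma on FPKM there was 1 call at the 4-cell and 1 at the early 8-cell stage (also 1 without the mismatched column). The first interaction had 0 and the last 2 (also 2 without that column), I1394G against siRNA had 3 and NaCr against control 0. DESeq2 size factors gave 1 call for the control step from 4-cell to early 8-cell and 2 for NaCr against control. The DESeq2 Wald test gave 3 for that step, 2 for the last interaction, 5 for I1394G and 4 for NaCr against control. The share of the late 2-cell level left at the 4-cell stage in controls was 1.77% for Zscan4, 1.49% with DESeq2 size factors and 1.35% in FPKM. For Obox it was 124%, 105% and 93%.

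Leaving out 1 library at a time gave 0 to 0 calls at the late 2-cell stage, 1 to 4 at the 4-cell, 1 to 4 at the early 8-cell and 2 to 5 at the late 8-cell stage. It gave 20 to 24 and 22 to 26 for the first step in controls and siRNA, 0 to 4 and 0 to 0 for the second, and 3 to 6 and 1 to 3 for the third. The interactions gave 0 to 3, 0 to 1 and 1 to 2. I1394G and NaCr gave 0 to 5 and 2 to 4 against siRNA, and 0 to 0 and 0 to 0 against control. The percentages left ranged over 1.56 to 2.04 (Zscan4 control), 0.571 to 1.21 (Zscan4 siRNA), 2.33 to 4.21 and 1.67 to 2.87 (Tcstv), 3.05 to 35.9 and 2.53 to 45.8 (Usp17l), 24.4 to 51.7 and 9.08 to 34.7 (Tdpoz), and 117 to 131 and 117 to 174 (Obox).

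The reversals among named genes were few. Zscan4d at the late 8-cell stage ranged from -1.07 (without siRNA replicate 1) to 6.65 over the libraries left out. The Dppa3 control step from 4-cell to early 8-cell became -0.19 with limma, -0.091 without the mismatched column, and -0.045 to 0.18 over the libraries left out, and its interaction was 0.025 with limma. For Trim43a that step became -0.082 with limma. Over the libraries left out, its siRNA step ranged from -0.042 to 0.30 and its interaction from -0.66 to 0.072, and the interaction was 0.26 with limma. Myc in the last interaction became -0.48 with limma. The cause of these changes was not tested. A depth of 3.20 M in 1 late 8-cell siRNA library limits what can be said of members at a few CPM.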
